A study of Rattus norvegicus with 56 samples.

Results

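rno-miR-26a-5p and rno-miR-26b-5p are the rat's microRNAs of the miR-26 family, and both were counted in every hippocampal small-RNA library of a rat study of traumatic brain injury (TBI). They were taken by name, as 2 of the 367 mature miRNAs in the count table, with earlier results of these data known. The study gave rats a fluid percussion injury, in which a fluid pulse strikes the exposed dura and leaves mixed focal and diffuse damage, or a sham surgery without the pulse. Hippocampi were taken from 24 h and 2 w through 1, 2, 3 and 6 m to 1 y, with 4 TBI and 4 sham rats at each interval and 1 library per rat, 56 libraries in all. Neither group carried a transgene or a drug as far as the labels go, and strain, sex and age at surgery are not given in the sources used here.

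miR-26 is among the most abundant miRNAs of the adult brain. A miRNA guides the Argonaute complex to messenger RNAs, mainly by pairing of its seed, the bases near its 5′ end, and lowers their translation and stability. The miR-26 genes lie inside genes of small C-terminal domain phosphatases, which act with the repressor REST to keep neuronal genes silent outside neurons, and miR-26 itself can target these phosphatases during neuronal differentiation.

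The mature sequences show why both members are read as 1 family and why they have to be counted with care. They are written 5′ to 3′ as RefSeq gives them for the GRCr8 assembly, with the seed (bases 2 to 8) in capitals.
rno-miR-26a-5p: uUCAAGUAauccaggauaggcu
rno-miR-26b-5p: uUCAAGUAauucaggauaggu
The seeds were identical. Over the first 21 bases, counted from the 5′ end with the miR-26a-5p base first, the differences were C11U and C21U, and miR-26a-5p ended with 1 further base. No other of the 693 mature rat miRNAs listed by RefSeq had this seed, and the nearest other mature sequence, that of miR-155-5p, differed from miR-26a-5p at 9 and from miR-26b-5p at 8 of the first 20 bases. A read that ended before base 21 and was misread at base 11 could therefore be taken for the other member, and how the counting divided such reads is not given in the sources used here.

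The hairpins from which the arms are cut also differed outside the 5p arms. Both are printed 5′ to 3′ with the 5p arm, the member counted here, in capitals.
Mir26a: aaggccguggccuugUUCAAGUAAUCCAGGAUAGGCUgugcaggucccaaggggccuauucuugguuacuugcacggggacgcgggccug
Mir26b: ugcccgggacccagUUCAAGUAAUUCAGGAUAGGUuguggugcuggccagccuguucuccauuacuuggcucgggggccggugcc
In GRCr8 the 90-base Mir26a hairpin lay at chr8:127633048-127633137 on the plus strand, inside the protein-coding gene Ctdspl on the same strand. The 85-base Mir26b hairpin lay at chr9:83425709-83425793 on the plus strand, inside Ctdsp1, also on the same strand. The count table lists miRNA names and no coordinates, so these positions come from RefSeq alone.

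Depth was ample for both members in all but 1 library. Total miRNA counts ranged from 2083604 to 12468979 in 55 libraries, and TBI rat 1 at 2 m had 69628. That shallow library held 5361 counts of miR-26a-5p and 209 of miR-26b-5p, which put the share of miR-26b-5p at 0.300% (95% Wilson interval 0.262 to 0.344%) and the ratio of both members at 25.7 (95% interval 22.3 to 29.6). These intervals hold counting error alone, because PCR copies carried no molecular identifier and cannot be counted as separate molecules. Lists of cell-type miRNAs were detected in every group, among them neuronal, oligodendrocyte, vessel-wall and leukocyte miRNAs. Choroid plexus miRNAs (miR-204, miR-211 and miR-448) differed most between rats of a group, with a summed level from 2591 to 20830 CPM (counts scaled to library size) in the sham rats at 3 m and up to 19364 CPM in 1 sham rat at 1 y.

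Both members were abundant, but miR-26a-5p far more so. miR-26a-5p held 12.05% of all miRNA counts on average over the 56 libraries and ranked 2 among the 367 miRNAs, after the neural miRNA miR-9a-5p (19.4%) and ahead of miR-99a-5p (11.3%). miR-26b-5p held 0.433% and ranked 32. In bulk tissue a lower share can mean fewer cells of a type or less of the miRNA per cell, and the counts cannot tell these apart. The table is mainly one of 5p arms, with 309 names ending in 5p and 5 in 3p, so shares and ranks hold within its 367 names and not over all hippocampal miRNAs. The lists below are read from the arms it holds, which for miR-124, miR-132, miR-29 and others are not the arms known best. A share also falls when another abundant miRNA rises.

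In the sham rats, which show the level without injury, the share of miR-26a-5p was lowest at 1 m and 2 m. The 24 h rats had 12.1, 12.6, 14.7 and 12.8% and the 2 w rats 12.8, 12.3, 11.9 and 12.3%. The 1 m rats had 9.73, 10.7, 12.3 and 9.67% and the 2 m rats 10.02, 12.4, 9.28 and 10.2%. The 1 m and 2 m values were thus below every 24 h value except in 1 rat at each interval. The 3 m rats had 12.5, 12.6, 13.5 and 14.2%, the 6 m rats 12.7, 12.4, 14.02 and 14.2%, and the 1 y rats 13.5, 13.8, 12.9 and 13.5%, values that overlapped those at 24 h.

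The TBI rats followed the same course. Their miR-26a-5p share was 12.3, 11.2, 13.1 and 11.8% in the 24 h rats and 11.6, 10.3, 11.2 and 12.1% in the 2 w rats. In the 1 m rats it was 10.96, 8.69, 9.26 and 9.86%. In the 2 m rats it was 7.70, 12.6, 11.4 and 7.91%, so that this group fell apart into 2 low and 2 high libraries, the shallow one among the low. The 3 m rats had 13.5, 12.8, 14.4 and 13.03%, the 6 m rats 11.9, 12.3, 14.9 and 14.1%, and the 1 y rats 12.5, 13.1, 12.4 and 12.4%. At every interval the TBI and sham values overlapped.

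miR-26b-5p moved within a range of low shares. Among sham rats, those taken at 24 h had 0.420, 0.401, 0.492 and 0.4219%, the 2 w rats 0.346, 0.366, 0.369 and 0.388%, the 1 m rats 0.437, 0.438, 0.440 and 0.375%, and the 2 m rats 0.472, 0.386, 0.445 and 0.348%. The 3 m rats had 0.427, 0.408, 0.465 and 0.506%, the 6 m rats 0.573, 0.430, 0.418 and 0.456%, and the 1 y rats 0.428, 0.465, 0.491 and 0.479%. By share the 2 w sham rats were all below those at 24 h, while in TMM-scaled CPM they overlapped (3573 to 4191 against 3957 to 5219 CPM), and sham rat 1 at 6 m had the highest value of any sham rat.

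Among TBI rats the share of miR-26b-5p was 0.463, 0.464, 0.473 and 0.435% in those taken at 24 h, 0.405, 0.361, 0.326 and 0.379% in the 2 w rats, 0.322, 0.221, 0.435 and 0.430% in the 1 m rats, and 0.300, 0.433, 0.334 and 0.319% in the 2 m rats. The 3 m rats had 0.581, 0.493, 0.565 and 0.466%, the 6 m rats 0.439, 0.532, 0.570 and 0.555%, and the 1 y rats 0.465, 0.486, 0.461 and 0.420%. TBI rats 1 and 2 at 1 m stood below the other pair of their group, while their miR-26a-5p shares were the highest and the lowest of the 4.

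**Figure D1:**
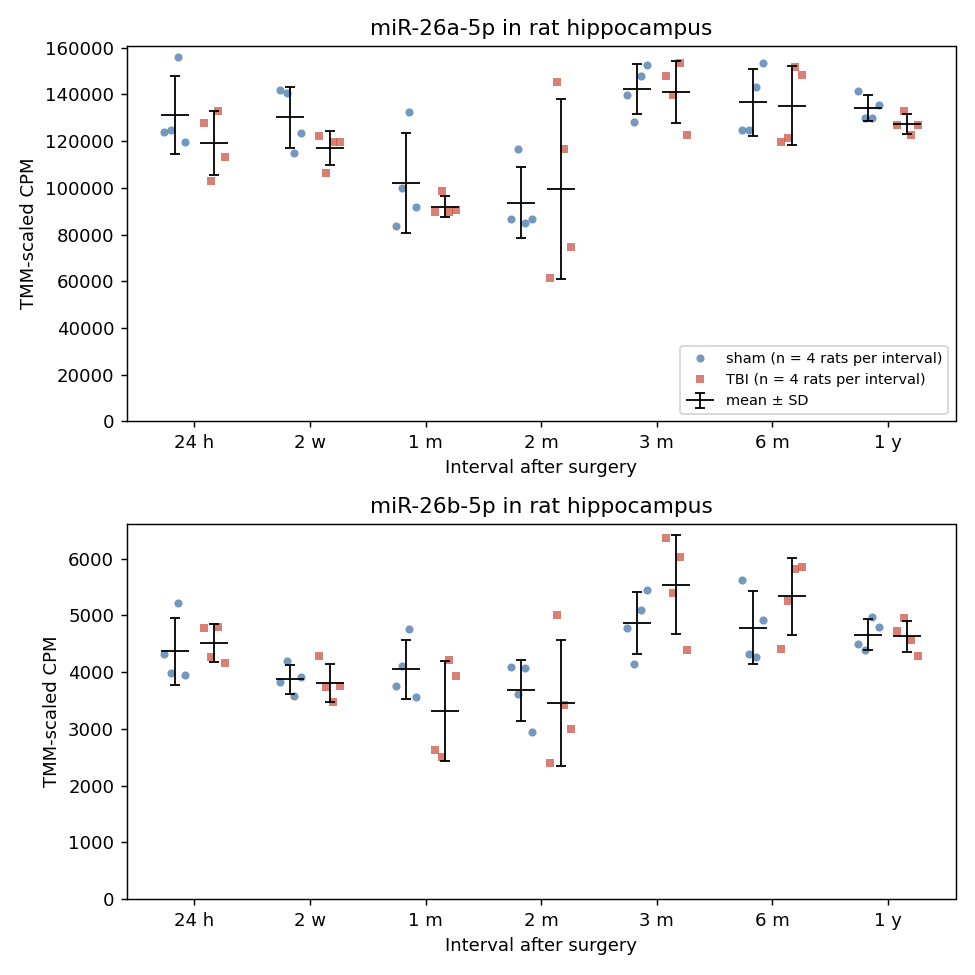
Level of miR-26a-5p (top) and miR-26b-5p (bottom) in CPM, scaled between libraries by the trimmed mean of M-values (TMM), at each interval after surgery. Circles are sham rats and squares TBI rats, 4 per group, and black bars show mean ± SD; the lowest group means of miR-26a-5p stand at 1 m and 2 m (93739 ± 15221 CPM in sham rats at 2 m).

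The first question was whether the injury changed either member. Neither was called at any of the 7 intervals in edgeR's quasi-likelihood fit (p adjusted by Benjamini-Hochberg over all miRNAs tested), and none of the 14 tests had an unadjusted p under 0.05, against 138 of 1605 tests (8.6%) over all miRNAs. DESeq2 and edgeR's likelihood ratio test also called 0 of 14, with 0 unadjusted p under 0.05 each. Among all miRNAs tested, the same quasi-likelihood rule called 1.72% at 24 h, 0.417% at 1 m and 0% at each of the other 5 intervals. These counts depended on the fit, as a joint fit of all libraries called 45 in place of 1 at 1 m, and DESeq2 called 7 and the likelihood ratio test 8 in place of 0 at 2 w. The CPM ranges of TBI and sham rats overlapped for both members at all 7 intervals. Over all miRNAs tested the ranges did not overlap in 4.29, 5.29, 10, 5.08, 4.09, 1.34 and 5.33%, in order of the intervals.

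For miR-26a-5p the TBI rats had the lower mean CPM at 6 of 7 intervals, and the fitted estimate, scaled within the interval, was negative at 5. None passed the test. The means were 119211 ± 13629 CPM in TBI and 131105 ± 16750 CPM in sham rats at 24 h, a log2 fold change of -0.14 (SE 0.13, adjusted p = 0.980) that was -0.05 without sham rat 3. At 2 w the log2 fold change was -0.13 (SE 0.08, adjusted p = 0.681). At 1 y it was -0.09 (SE 0.04, 95% interval -0.18 to 0.01, adjusted p = 0.426), the smallest error of the 7 comparisons, with 127414 ± 4224 CPM in TBI and 134207 ± 5415 CPM in sham rats. For 1, 2, 3 and 6 m the estimates were -0.09, 0.06, 0.03 and -0.02, with adjusted p from 0.823 to 0.979. The 2 m value moved with single libraries and with the scaling, as it was 0.21 without TBI rat 1, -0.16 without TBI rat 2, and -0.08 when libraries were scaled by their totals.

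For miR-26b-5p the differences went both ways. TBI rats had a mean of 5541 ± 868 CPM against 4865 ± 551 CPM in sham rats at 3 m, a log2 fold change of 0.23 (SE 0.11, 95% interval -0.01 to 0.46, adjusted p = 0.547). At 6 m the means were 5332 ± 673 and 4784 ± 636 CPM, a log2 fold change of 0.15 (SE 0.10, adjusted p = 0.963). At 1 m the TBI mean was the lower, 3318 ± 878 against 4046 ± 524 CPM, with a log2 fold change of -0.24 (SE 0.19, adjusted p = 0.548). Single rats moved the 1 m value to -0.45 (without TBI rat 3) or -0.15 (without TBI rat 1), and the 3 m value to 0.13 (without TBI rat 1). The estimates at 24 h, 2 w, 2 m and 1 y were 0.04, -0.00, -0.11 and -0.02, with adjusted p from 0.924 to 0.982.

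**Figure D2:**
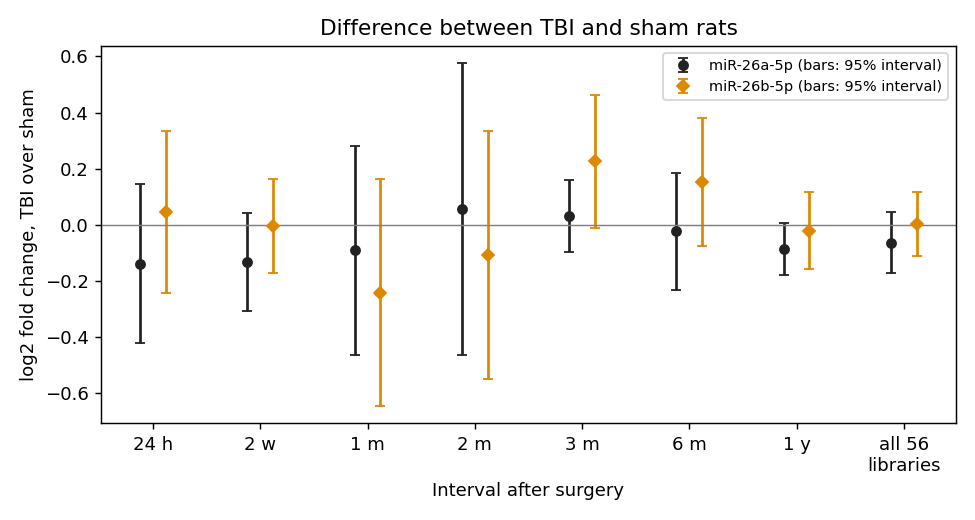
Log2 fold change of TBI over sham rats for both members at each interval, and over all 56 libraries with interval as a covariate. Points are edgeR estimates and bars their 95% intervals; every interval holds 0, and the widest belong to 1 m and 2 m.

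Averaged over the 7 intervals in 1 fit of all 56 libraries, the injury effect was -0.06 (SE 0.05, 95% interval -0.17 to 0.04, adjusted p = 0.618) for miR-26a-5p and 0.00 (SE 0.06, 95% interval -0.11 to 0.12, adjusted p = 0.989) for miR-26b-5p on the log2 scale. That fit called 4.51% of the miRNAs tested. Among these was miR-142-5p, a miRNA of blood-derived leukocytes and microglia (0.44, SE 0.06, adjusted p = 3.97e-07). This pooled fit thus called a shift of 0.44 in a miRNA with an SE close to those of both members. What shift could be called at a single interval does not follow from it. Also called was miR-223-5p, which is abundant in neutrophils and other myeloid cells (1.37, SE 0.28, adjusted p = 2.08e-04). Counts of miR-223-5p were near the floor, with a median of 3 and a range of 0 to 61. Of the 3 leukocyte and microglia miRNAs tested, these 2 were called. The injury effect did not differ detectably between intervals for either member (adjusted p = 0.956 for miR-26a-5p and 0.634 for miR-26b-5p, with 2.87% of miRNAs called).

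The ratio of both members within a library does not depend on how libraries are scaled. Over all libraries it ran from 20.9 to 39.3 counts of miR-26a-5p per count of miR-26b-5p. At 24 h the ratio was 28.7, 31.4, 29.9 and 30.3 in the sham rats and 26.7, 24.1, 27.7 and 27.2 in the TBI rats. At 3 m it was 29.2, 30.9, 29.05 and 28.05 in the sham rats and 23.3, 25.96, 25.4 and 27.97 in the TBI rats. At both intervals every TBI rat lay below every sham rat, by a mean log2 difference of -0.19 each time. At 3 m the margin was narrow, as the highest TBI rat (27.97) nearly touched the lowest sham rat (28.05). The exact two-sided permutation test gave p = 0.0286 at each, the smallest that 4 rats against 4 allow, and 0.1 after adjustment over the 7 intervals, so neither difference passed. At least 5 of the 7 would have had to reach that smallest p for an adjusted p under 0.05.

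At the other intervals the ratios of the groups overlapped. They were 37.1, 33.5, 32.2 and 31.6 in sham and 28.6, 28.5, 34.4 and 31.9 in TBI rats at 2 w, and 22.3, 24.4, 27.9 and 25.8 in sham and 34.1, 39.3, 21.3 and 23.0 in TBI rats at 1 m. The TBI rats at 1 m held both the highest ratio of the series and 2 low ones. At 2 m the ratios were 21.2, 32.2, 20.9 and 29.4 in sham and 25.7, 29.1, 34.1 and 24.8 in TBI rats, and the sham rats at 2 m likewise fell into a low and a high pair. Each number in the titles stands on 2 libraries, and the low pair carries number 25 and the high pair 26, whereas the low and high TBI rats at 1 m each carry 23 and 24. At 6 m they were 22.2, 28.9, 33.6 and 31.2 in sham and 27.2, 23.1, 26.1 and 25.3 in TBI rats, and at 1 y 31.5, 29.6, 26.2 and 28.3 in sham and 26.9, 26.9, 26.9 and 29.6 in TBI rats. The TBI mean was the lower at 5 of 7 intervals. Over all intervals the mean log2 difference was -0.06 (permutation p = 0.263 with labels permuted within interval, 56 libraries). The summed choroid plexus miRNAs had a median of 4102 CPM in TBI and 11043 CPM in sham rats at 3 m, with the TBI range (3284 to 4138) inside the sham range and no miRNA of the list called. Their part in the ratio at 3 m was not tested.

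**Figure D3:**
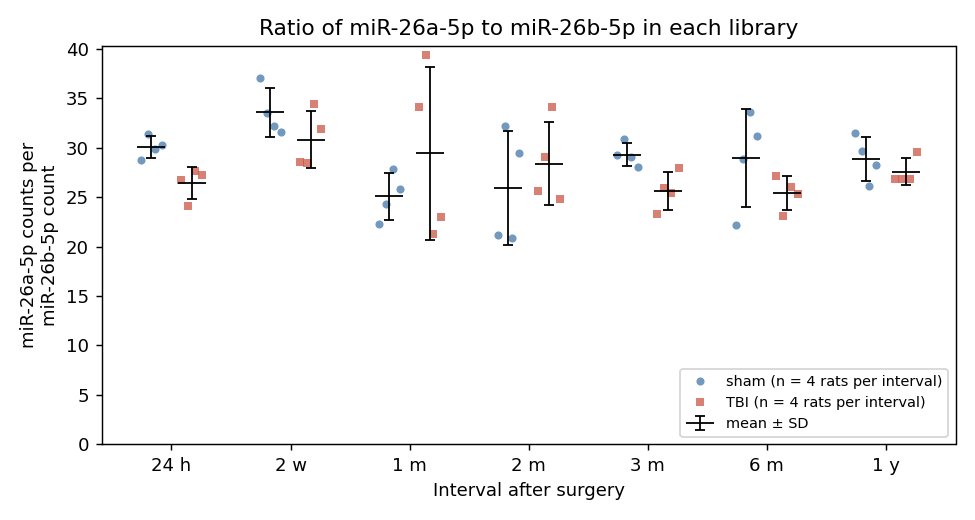
Counts of miR-26a-5p per count of miR-26b-5p in each library, by interval. Circles are sham rats and squares TBI rats, 4 per group, and bars show mean ± SD; TBI rats lie below sham rats without overlap at 24 h and 3 m, and the widest spreads are in TBI rats at 1 m and sham rats at 2 m.

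The unscaled shares of counts gave no injury difference that passed either. Over 14 comparisons of mean share by the exact permutation test, the lowest p was 0.0571, for miR-26a-5p at 2 w (11.3% in TBI and 12.3% in sham rats) and at 1 y (12.6% and 13.4%), with 0.4 after adjustment. With 14 comparisons at least 9 would have had to reach the smallest p for any to pass, so the test could hardly call a single difference.

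The second question was whether the members moved over the year. Both differed between intervals in both groups, with 2 of the 4 calls close to the threshold. In sham rats the adjusted p over the 7 intervals was 0.00462 for miR-26a-5p, rank 10 of 240 by size of the F statistic, and 0.0438 for miR-26b-5p. In TBI rats, which are other animals, it was 0.0306 for miR-26a-5p and 0.00392 for miR-26b-5p. The call for miR-26b-5p in sham rats was lost with scaling by total counts (0.0731) and in 12 of 28 fits that left out 1 rat, and that for miR-26a-5p in TBI rats with DESeq2 size factors (0.0508). Such differences were common, as the test called 27.1% of the miRNAs tested in sham rats and 27.1% in TBI rats.

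The lowest mean levels of miR-26a-5p stood at 1 m and 2 m in both groups. From lowest to highest mean CPM the sham order was 2 m (93739), 1 m (102043), 2 w (130175), 24 h (131105), 1 y (134207), 6 m (136614) and 3 m (142128). In TBI rats it was 1 m (92002), 2 m (99491), 2 w (117054), 24 h (119211), 1 y (127414), 6 m (135250) and 3 m (140969). The ranges of neighbours in each order overlapped, so no single step stood clear of the spread between rats. Of the 16 libraries at 1 m and 2 m, 12 were below 103058 CPM, the lowest of the other 40. By share of counts 10 were below 10.27%, the lowest of the other 40. These intervals were picked for their low values, so both counts describe the libraries and test nothing. A like count over all miRNAs is not given here. Against 24 h, the sham rats at 2 m passed (log2 fold change -0.49, SE 0.12, adjusted p = 0.00740, with 18.8% of miRNAs called). Sham rats at 1 m (-0.36, SE 0.12, adjusted p = 0.272), TBI rats at 1 m (-0.37, SE 0.17, adjusted p = 0.153) and TBI rats at 2 m (-0.31, SE 0.17, adjusted p = 0.280) did not, in comparisons that all share the 24 h libraries of their group and called 1.25%, 12.9% and 10.4% of miRNAs. The sham rats at 2 w, 3 m, 6 m and 1 y differed from 24 h by -0.01, 0.11, 0.06 and 0.04, and the TBI rats by 0.02, 0.28, 0.19 and 0.10, with adjusted p from 0.578 to 0.984.

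For miR-26b-5p the sham order was 2 m (3681 CPM), 2 w (3875), 1 m (4046), 24 h (4367), 1 y (4658), 6 m (4784) and 3 m (4865). In TBI rats it was 1 m (3318 CPM), 2 m (3456), 2 w (3814), 24 h (4504), 1 y (4632), 6 m (5332) and 3 m (5541). Neighbours overlapped here too. Of the 16 libraries at 1 m and 2 m, 6 were below 3477 CPM, the lowest of the other 40, again a description and not a test. No later interval passed against 24 h in either group, where 0, 1.25, 18.8, 3.75, 6.25 and 1.67% of miRNAs were called in sham rats from 2 w to 1 y and 2.08, 12.9, 10.4, 3.33, 6.67 and 5.42% in TBI rats. The estimates farthest from 0 were -0.45 at 1 m (SE 0.17, adjusted p = 0.0823) and -0.41 at 2 m (SE 0.17, adjusted p = 0.150) in TBI rats.

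**Figure D4:**
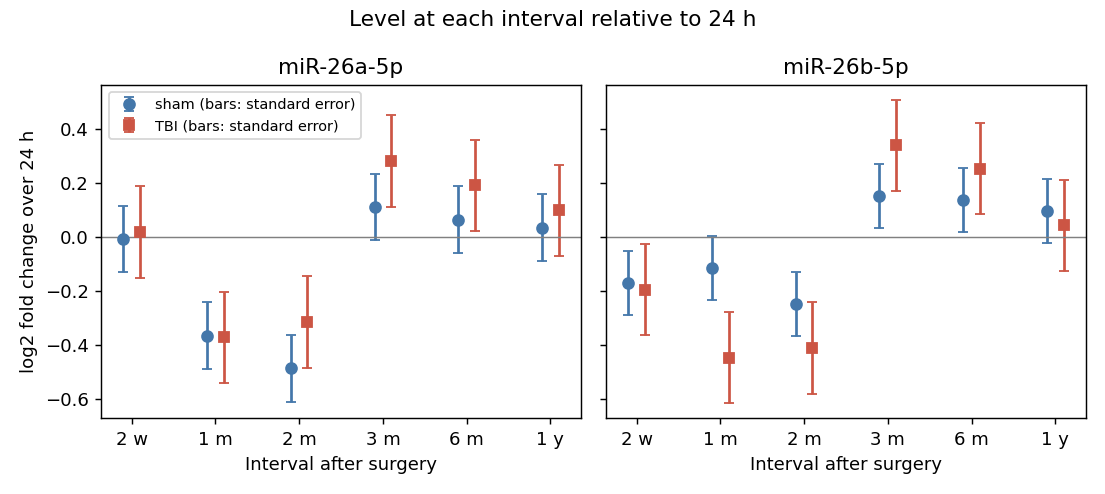
Log2 fold change of each member at 2 w to 1 y over 24 h, in sham (circles) and TBI (squares) rats, with standard errors. Both groups are lowest at 1 m or 2 m and highest at 3 m, for miR-26a-5p and miR-26b-5p alike; miR-26a-5p at 2 m in sham rats (-0.49) passed the test.

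With 1 m and 2 m left out, the adjusted p was 0.770 in sham and 0.168 in TBI rats for miR-26a-5p, and 0.171 in sham but 0.0111 in TBI rats for miR-26b-5p. These intervals were picked after their low values were seen and hold 8 of the 28 libraries of each group, so a higher p was to be expected, and no other pair was left out. The titles give the libraries numbers that run 21 to 24 at 1 m and 25 to 28 at 2 m, after 1 to 20 for the other intervals, and what a number marks is not stated. Age, time after surgery and any preparation or run of the libraries cannot be told apart between intervals. The medians of some list sums differed at the same intervals, without a test of the sums. The neuronal miRNAs, mostly miR-9a-5p, had a median of 187264 CPM at 1 m and 170974 CPM at 2 m against 199128 CPM at 24 h in sham rats, and 175050 CPM at 1 y, with the 1 m range inside that at 24 h. In TBI rats the medians were 152988, 153234 and 208154 CPM at 1 m, 2 m and 24 h. The TBI range at 2 m (142650 to 292511 CPM) spanned that at 24 h (169230 to 218690 CPM). Vessel-wall miRNAs had 1363.8 and 1673 CPM at 1 m and 2 m against 1130 CPM at 24 h in sham rats, and 1055 and 1539 against 1177 CPM in TBI rats. Leukocyte and microglia miRNAs in sham rats ran from 814 to 935 CPM at 1 m and 834 to 1009 CPM at 2 m. At 24 h they ran from 1140 to 2387 CPM, without overlap. In TBI rats their medians were 1024, 1027 and 1290 CPM at 1 m, 2 m and 24 h. The TBI range at 1 m (843 to 1236 CPM) overlapped that at 24 h (1176 to 1552 CPM). The part of these lists in the interval effect was not tested.

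For the ratio between intervals in sham rats the permutation p was 0.0428 (F = 2.66), without adjustment for the number of tests. Means ran from 25.1 ± 2.34 (SD, n = 4) at 1 m to 33.6 ± 2.46 at 2 w. The ratio did not pass in TBI rats (F = 0.943, permutation p = 0.485). Without 2 w, the interval with the highest ratio and picked for it, p was 0.247; no other interval was left out. Leaving out single sham rats moved p between 0.00838 and 0.107, and 20 of the 28 such fits did not pass.

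Between rats of the same group both members varied less than the median miRNA, in a comparison not matched for abundance. The SD of log2 CPM within groups was 0.21 for miR-26a-5p, rank 57 from the smallest among 244 miRNAs, and 0.22 for miR-26b-5p, rank 62, where the median miRNA had 0.30. Rats above their group's mean in one member tended to be above it in the other. Over the 56 rats the deviations from the group means correlated with Pearson's r = 0.62 (permutation p = 1.5e-04, 6e-04 after adjustment over 4 relations) and Spearman's rho = 0.54 (p = 2.4e-04, 9.6e-04 after adjustment). Without the 2 rats farthest from the median, TBI rats 1 and 2 at 2 m, r was 0.43. With CPM scaled by total count alone it was 0.37 (permutation p = 0.0336), so part of the relation moved with the scaling. The relations of miR-26a-5p, miR-26b-5p and the ratio to log2 total count did not pass (r = 0.36, 0.24 and 0.13, permutation p from 0.501 to 0.538; rho = -0.24, -0.25 and 0.12, permutation p from 0.0924 to 0.423). Without TBI rats 1 and 2 at 2 m these r were -0.31, -0.33 and 0.05, so the signs for both members rested on these rats.

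Neither member was the other's nearest match. Likeness was ordered by Pearson's r of these deviations over 56 libraries and 244 miRNAs, a description in which all points share library and scaling. By r, miR-26a-5p was most like miR-22-5p (r = 0.85, rho = 0.72), miR-325-5p (r = 0.83, rho = 0.63) and miR-505-5p (r = 0.71, rho = 0.50). miR-26b-5p was most like miR-872-5p (r = 0.76, rho = 0.75), let-7f-5p (r = 0.73, rho = 0.67), one of the abundant let-7 miRNAs of differentiated cells, and miR-32-5p (r = 0.72, rho = 0.66). Each of the 2 members ranked 11 in the other's order by r. By rho the order differed in part, as miR-26a-5p had a higher rho with miR-26b-5p (0.54) than with miR-505-5p.

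Other miRNAs tied to REST or its targets were listed for comparison, by the arms in the table: miR-9a, miR-124, miR-132, miR-212, miR-29a, miR-29b and miR-153. Of 7 tested at each interval, 0 were called between TBI and sham rats by edgeR's quasi-likelihood test, with 2 of 49 tests at an unadjusted p under 0.05, and DESeq2 called 0, also with 2 of 49, where 8.6% of tests over all miRNAs stood under that unadjusted p in edgeR. Their median log2 fold change over all intervals was -0.01, and that of all miRNAs tested -0.01. Between intervals in sham rats 3 of 7 were called, miR-9a-5p (adjusted p = 0.0145), miR-124-5p (0.00199) and miR-212-5p (0.0213), and in TBI rats 0 of 7, beside 27.1% of all miRNAs in each group.

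A second list held miRNAs chosen as abundant in brain, although some of their arms were scarce here, with a median of 12 counts for miR-101a-5p and 0 for miR-101b-5p. Of these, 0 of the 17 or 18 tested at an interval were called between TBI and sham rats by edgeR's quasi-likelihood test, with 8 of 125 tests at an unadjusted p under 0.05. DESeq2 also called 0, with 9 of 125. Over all miRNAs 8.6% of tests had an unadjusted p under 0.05 in the quasi-likelihood fit. Between intervals, 3 of 18 were called in sham rats, miR-9a-5p, miR-22-5p (adjusted p = 0.00446) and miR-127-5p (0.0494). In TBI rats 5 of 18 were called, miR-99a-5p (0.0375), let-7f-5p (0.0214), miR-30a-5p (0.0409), miR-30d-5p (0.0310) and miR-101a-5p (0.0310). The share of all miRNAs called was 27.1% in each group.

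The lists of cell-type miRNAs gave the setting for these values. At single intervals edgeR's quasi-likelihood fit called 0 of their miRNAs between TBI and sham rats, although 6 of 14 leukocyte and microglia tests, 5 of 20 oligodendrocyte tests, 4 of 14 red-cell tests, 4 of 21 choroid plexus tests, 3 of 35 neuronal tests and 2 of 21 vessel-wall tests had an unadjusted p under 0.05, beside the 8.6% over all miRNAs. DESeq2 and edgeR's likelihood ratio test each called 1 of 14 leukocyte and microglia tests, 1 of 20 oligodendrocyte tests and 1 of 14 red-cell tests. Among all 220 to 240 miRNAs tested per interval, DESeq2 called 5, 7, 5, 1, 1, 0 and 0 in order of the intervals. The likelihood ratio test called 4, 8, 5, 2, 0, 0 and 0.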

How the data were processed

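Small-RNA libraries from rat hippocampus (NEBNext kit) were sequenced by the authors, who demultiplexed them with bcl2fastq 2.20.0.422, quantified mature miRNAs with miRDeep2 against miRBase, and deposited 1 table of raw counts. No scaling had been applied to the counts. Whether miRNA names had been filtered out before deposit is not stated. How reads fitting both miR-26 members were divided is not given in the sources used here, and no genome build is named. Names were matched to RefSeq (GRCr8), where 331 of 367 had a sequence.

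Groups came from the treatment and time labels. Each rat gave 1 library. Per interval, edgeR 4.0.16 (R 4.3.3; filterByExpr, TMM, glmQLFit without the legacy setting) compared TBI with sham rats. Further fits took all 56 libraries, or each treatment across intervals. p-values were adjusted over all miRNAs tested, with calls at 0.05. Ratios and shares came from raw counts and were tested by exact permutation, or 100000 resamples for fits over intervals. Alternatives included DESeq2 1.42.0. The fits were tested on simulated data. Named miRNAs were both members, the 3 most correlated with each and called members of the REST-linked and abundant lists, besides cell-type markers. Members, lists and tests were chosen with earlier results of these data known. At 1 y, numbers shared between sham and TBI titles correlated at 0.03, 0.11, 0.41 and 0.10, so they were not taken as pairs.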

Additional observations from a re-analysis of the deposited data

Results flagged for a closer look

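Dixon's test was run on the 4 rats of each group for 5 measures, 70 tests in all, and picked out 7 single rats; chance alone picks about 1 in 20, and the measures overlap. For miR-26a-5p CPM these were sham rat 3 at 24 h (156017, the others 119755 to 124713), TBI rat 2 at 2 w (106409, the others 119762 to 122189), TBI rat 2 at 1 m (98641, the others 89488 to 90346) and sham rat 2 at 2 m (116547, the others 85161 to 86684). For the ratio it was TBI rat 4 at 1 y (29.6, the others 26.85 to 26.89). For shares of counts these were TBI rat 2 at 1 y for miR-26a-5p (13.1%, the others 12.4 to 12.5%) and sham rat 4 at 1 m for miR-26b-5p (0.375%, the others 0.437 to 0.440%). No rat was picked out for the level of both members.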

How the results depend on the processing

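Neither member was called for injury under any alternative, and leaving out each rat in turn called neither. With all rats kept, an unadjusted p under 0.05 was reached by miR-26a-5p at 1 y with total counts only (0.018), at least 10 counts (0.0204) and DESeq2 size factors (0.0337) and at 2 w with total counts only (0.047), with adjusted p from 0.400 to 0.513 in edgeR. Small estimates changed sign. By log2 fold change, miR-26b-5p at 2 w was 0.0014 with total counts only and 0.011 with at least 10 counts in every library, and its average over all intervals -0.0069 with total counts only, -0.0015 by DESeq2 and -0.0012 in the older quasi-likelihood fit of edgeR, which was added after seeing the data. miR-26a-5p at 2 m was -0.083 with total counts only, and at 3 m -0.012 with DESeq2 size factors, -0.011 with at least 10 counts, -0.012 by DESeq2 and -0.012 in the joint fit of 56 libraries. Leaving out single rats moved miR-26a-5p from -0.27 to 0.051 at 1 m, -0.16 to 0.21 at 2 m, -0.020 to 0.062 at 3 m and -0.087 to 0.038 at 6 m, and miR-26b-5p from -0.031 to 0.14 at 24 h, -0.071 to 0.029 at 2 w, -0.31 to 0.0032 at 2 m, -0.042 to 0.013 at 1 y and -0.030 to 0.013 over all intervals. The cause was not tested.

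For the interval effect, values are adjusted p. In sham rats miR-26a-5p had 0.770 without 1 m and 2 m. miR-26b-5p in sham rats had 0.0731 with total counts only and 0.171 without 1 m and 2 m, and 0.0085 to 0.0661 when single rats were left out, with 12 of 28 such fits above 0.05: without rat 4 of 24 h, rats 1 and 3 of 2 w, rats 2 and 4 of 1 m, rats 1, 3 and 4 of 3 m, rat 1 of 6 m and rats 1, 3 and 4 of 1 y. In TBI rats miR-26a-5p had 0.0508 with DESeq2 size factors, 0.168 without 1 m and 2 m, and 6.05e-04 to 0.0559 without single rats, passing 0.05 in 25 of 28 fits and missing it without rat 4 of 1 m or rats 1 or 3 of 3 m. Leaving out 1 m and 2 m takes away 8 of the 28 libraries of each group.

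For the ratio, the log2 difference with medians was -0.16 at 24 h and -0.18 at 3 m, each with an exact permutation p of 0.0571. Without single rats it ran from -0.21 to -0.14 at 24 h (p = 0.0571 by the exact test without TBI rat 2), -0.24 to -0.15 at 3 m (0.0571 without any one sham rat) and -0.30 to -0.097 at 6 m (0.0286 without sham rat 1). The interval effect on the ratio in sham rats had permutation p = 0.247 without 2 w and 0.0084 to 0.107 without single rats. The difference in the share of miR-26a-5p (percentage points) ran from -1.28 to -0.68 at 2 w (0.0286 by the exact test without TBI rat 4), -1.49 to 0.14 at 2 m, -0.086 to 0.56 at 3 m and -0.60 to 0.39 at 6 m, and that of miR-26b-5p from -0.012 to 0.014 at 2 w and -0.020 to 0.0048 at 1 y.

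The number of miRNAs called, 4 at 24 h, 1 at 1 m and 0 elsewhere, was 8, 4, 45 and 5 from 24 h to 2 m in the joint fit, 8, 5 and 2 from 2 w to 2 m by edgeR's likelihood ratio test, 7, 5, 1 and 1 from 2 w to 3 m by DESeq2, and for 1 m 3 with no filter and 2 with at least 10 counts. Without single rats it was 2 to 5 for 24 h (lowest without TBI rat 1 or 4), 0 to 7 for 2 w (7 without TBI rat 3), 1 to 7 for 1 m (2 to 7 without sham rats 1, 2 or 3 or TBI rats 2 or 3, 7 being without TBI rat 2), 0 to 2 for 2 m (2 without TBI rat 2) and 0 to 1 for 1 y (1 without sham rat 2). At 1 y the number in the title could serve as a replicate block; the block gave -0.087 for miR-26a-5p (adjusted p = 0.541) and -0.021 for miR-26b-5p (0.964), and called 0 miRNAs. Of 4 such pairs, 2 correlated best with their own number, so the numbers were not shown to pair rats. The shallow TBI library at 2 m limits the precision of miR-26b-5p there.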
